A study of Mus musculus with 2 samples.

Results

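The genes described here are 9 members of the cytokine signalling machinery of neutrophils, the STAT transcription factors Stat2, Stat3, Stat5a, Stat5b and Stat6 and the feedback inhibitors Socs1, Socs2, Socs3 and Cish. They were taken by gene symbol, and every probe set annotated to these genes was used, which gave 23 probe sets of 45037 and 9 genes of 18193. No probe set of a member was annotated to a further gene. Neutrophils, short-lived phagocytes of the innate immune system, had been sorted from mouse bone marrow as CD11b+ and Ly6G+ cells with little Ly6C. The first group carried the genotype label Jdp2 KO and the other Jdp2 WT, and both shared the strain label C57BL/6 /129/J mixed background. Age, sex, treatment, the design of the Jdp2 deletion and the number of mice behind each RNA are not stated in the labels. Jdp2 encodes a basic leucine-zipper repressor related to AP-1, and the comparison asks how transcripts of these neutrophils differ between the labelled genotypes.

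Each genotype was measured on 1 Affymetrix array, so no spread between mice could be estimated, no difference has a p-value, and precision is limited by the number of arrays. Values are log2 signals, and each difference subtracts the wild-type label from the knockout label. A gene or probe set passed the level filter where at least 1 of its values reached the median of its array, which was 5.67 (knockout label) and 5.65 (wild-type label). Jdp2 did not check the labels: its stronger probe set (1450350_a_at) read 12.38 in the array labelled knockout and 11.997 in the other, and its weaker one (1424972_at) read 5.40 and 5.24. Directions below therefore refer to the arrays as labelled. Of the 12 measured neutrophil markers, 12 lay above the median on both arrays, and no value of Ly6g is used here. Their median difference was -0.06, from -0.43 (Itgam) to 0.24 (Cxcr2). Camp read 14.51 and 14.54, beside array maxima of 14.56 and 14.54. Differences so near the top of the scale may be understated, so equal neutrophil content is not read from this median. The arrays differed in other cells' markers, in both directions. Of 17 measured monocyte and macrophage genes 16 passed the filter. By their brightest probe sets all 16 had a difference above 0, beside 44.8% of all passing genes. The summed linear signal of the 17 was 13706 against 7949, and 7 of them lay below the median in the array labelled wild-type. The 2 passing probe sets of Fcgr1 ran from -0.47 to 1.24, and the mean of all probe sets of Cx3cr1 was -0.22. All 6 primary granule genes, transcribed in neutrophil precursors, were past 2-fold by their brightest probe sets, beside 5.39% of all passing genes. Their summed linear signal was 6382 against 1686. The other passing probe set of Ctsc differed by -0.61, and the mean of its probe sets was 0.48, short of 2-fold. Prtn3 and Ctsg lay below the median in the array labelled wild-type. Setting that value to the median left folds of 3.06 and 6.64. Of 7 measured platelet and megakaryocyte genes, 3 were past 2-fold and 5 lay above 0, with a summed linear signal of 4848 against 2890. Sums were also higher for dendritic cell (1177 against 869), eosinophil, basophil and mast cell (671 against 484) and T and NK cell genes (2406 against 2187). They were lower for erythroid (983 against 1278) and B cell genes (1128 against 1528). Stem and progenitor genes (4433 against 4973) and stromal and endothelial genes (564 against 645) were lower too.

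STAT proteins wait in the cytoplasm until a Janus kinase bound to a cytokine receptor phosphorylates them, then pair through their SH2 domains and enter the nucleus. STAT3 acts downstream of G-CSF and IL-6, STAT5A and STAT5B downstream of GM-CSF, IL-3 and erythropoietin, STAT6 downstream of IL-4 and IL-13, and STAT2 joins IRF9 in the complex that answers type I interferon. SOCS proteins and CIS, the product of Cish, are induced by STATs and shut the receptors down again. In neutrophils, G-CSF drives production through STAT3, and SOCS3 limits that signal.

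STATs bind the palindrome TTCNNNGAA, known as GAS. STAT6 also binds TTC and GAA spaced by 4 bases, and the STAT2 complex binds the interferon-stimulated response element (ISRE), searched here by its core of GAAA repeated after a spacer of 2 bases. These 3 motifs were searched on both strands in RefSeq promoter windows of assembly GRCm38.p6, 250 bases before to 50 after each annotated start, which held 10 entries for 8 of the 9 members. The windows below are shown because they hold every match among the members, and because feedback inhibitors are themselves STAT targets. Capitals mark the matches, each line runs 5′ to 3′ on the strand of the gene, and the Cish stretch runs 21 bases past the annotated start.
Socs3, chr11:117969487-117969546, minus strand: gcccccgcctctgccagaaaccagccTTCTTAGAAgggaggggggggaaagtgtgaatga
Cish, chr9:107296604-107296679, plus strand: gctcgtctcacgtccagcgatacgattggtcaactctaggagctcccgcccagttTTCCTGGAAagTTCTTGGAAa
Stat2, chr10:128270258-128270317, plus strand: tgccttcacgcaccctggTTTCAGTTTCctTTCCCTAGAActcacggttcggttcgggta
Socs1, chr16:10785582-10785641, minus strand: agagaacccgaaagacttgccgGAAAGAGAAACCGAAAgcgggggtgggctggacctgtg

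Socs3 held 1 GAS match, TTCTTAGAA, starting 154 bases upstream of the annotated start. Cish held 2 of them in tandem, TTCCTGGAA and TTCTTGGAA, at bases 1 and 12 from its start. GAS matches were present in 8.30% of all 32851 promoter windows of this length. The 4-base spacer form was found in Stat2 (TTCCCTAGAA, 210 bases upstream) and in 6.95% of all windows. The interferon core was found in Stat2, on the opposite strand 222 bases upstream, and in Socs1 as 2 overlapping matches that start 83 and 77 bases upstream; 3.44% of all windows held it. In the windows of Stat3, Stat5a, Stat5b and Stat6 none of these 3 letter patterns was present. The AP-1 motif TGANTCA (7.81% of all windows) and the related TGACGTCA (1.79%), both palindromes, were present in none of the 10 windows. A match describes letters in a window, not binding.

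**Figure D1:**
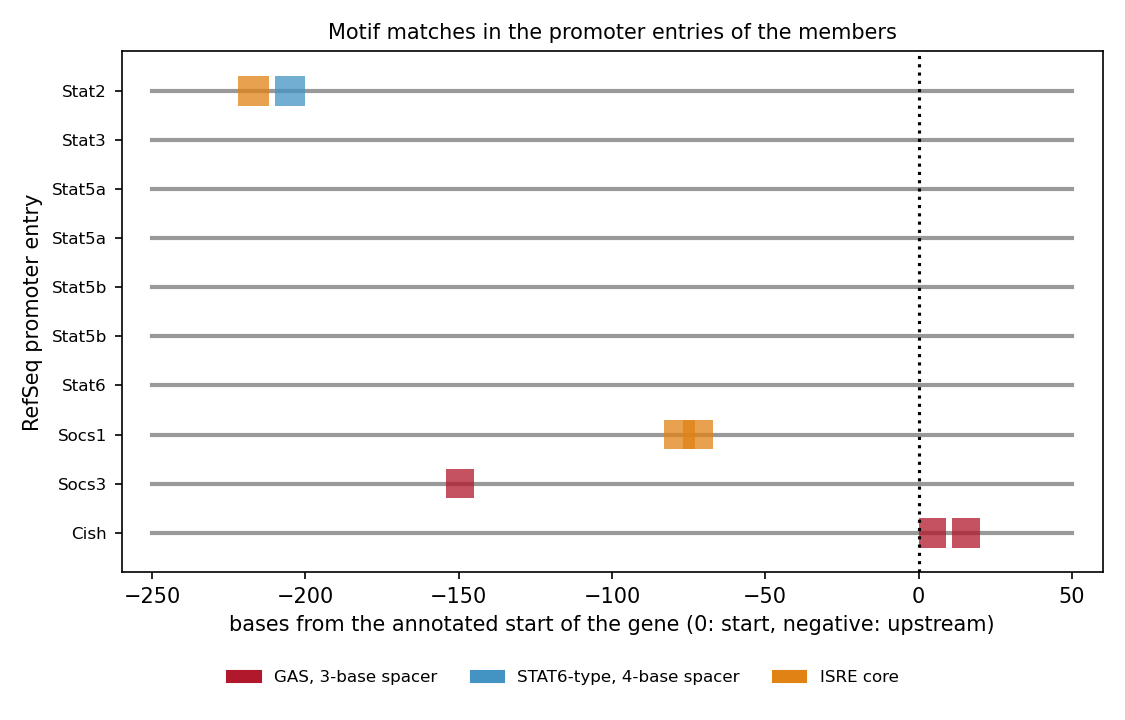
Positions of the 3 STAT motifs in the 10 RefSeq promoter windows of 8 members. The horizontal axis gives bases from the annotated start, grey lines are the windows, and coloured boxes are matches drawn to their length. Matches are seen in Stat2, Socs1, Socs3 and Cish, and those of Cish lie just after the start.

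None of the 8 members that passed the level filter reached 2-fold, against 5.39% of the 11168 genes that passed. The widest differences were 1.42-fold lower in the array labelled knockout for Cish and 1.36-fold higher for Stat2. None reached 1.5-fold either, a size met by 17.3% of all passing genes. Over the 8 members, 4 differences lay above 0 and 4 below, with a median of -0.02, beside a median of -0.04 over all passing genes. The median size of the difference regardless of sign was 0.28 for the members and 0.24 for all passing genes. By single probe sets, 0 of 16 passing ones reached 2-fold, against 5.14% of the named probe sets that passed, and all 16 lay above the median on both arrays. The members' median changed sign after quantile normalisation (0.01) and after removal of a loess trend (0.02).

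**Figure D2:**
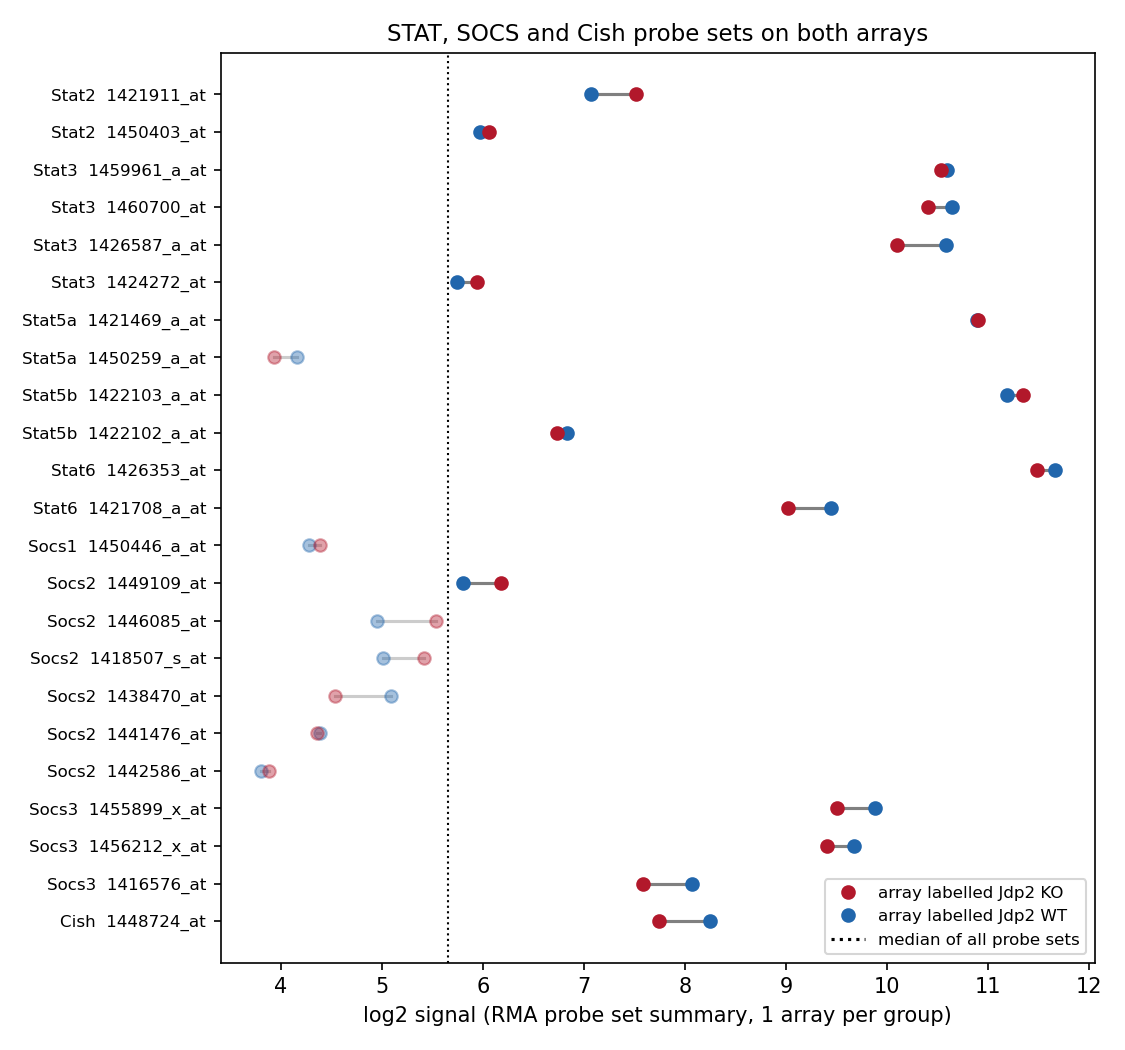
Log2 signal of all 23 probe sets of the 9 genes, with 1 point for the array labelled Jdp2 KO, 1 for the array labelled Jdp2 WT and a grey line between them. The dotted line is the array median, and paler points did not pass the level filter. The 3 probe sets of Socs3, the 2 of Stat6 and the single one of Cish all read lower in the array labelled knockout, and the 2 of Stat2 read higher.

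Stat2, whose product is needed for responses to type I interferon, had the widest difference among the STATs when each was read by its brightest probe set. By the mean of all probe sets Stat6 (-0.30) was wider than Stat2 (0.27), and a weaker probe set of Stat3 (-0.48) also exceeded it. Its brighter probe set (1421911_at) read 7.51 in the array labelled knockout and 7.07 in the other, a log2 difference of 0.44. The second (1450403_at) read 6.06 and 5.97, a difference of 0.09. Both pointed the same way but differed in size, and 12.4% of all passing genes had a higher difference than the brighter one.

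Stat3, the main STAT of G-CSF signalling, lay close to even by its brightest probe set (1459961_a_at), which read 10.54 and 10.59. Probe set 1460700_at read 10.41 and 10.65, a log2 difference of -0.24. Probe set 1426587_a_at read 10.10 and 10.59, a difference of -0.48. The weakest (1424272_at), just above the array median, read 5.94 and 5.74, a difference of 0.20. The 4 probe sets thus did not share a direction. Their mean difference of -0.14 was smaller than the SD between them, 0.29, which reflects probe sets on shared RNA and not mice.

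Stat5a and Stat5b encode close relatives that answer GM-CSF and IL-3, and in the gene order of the reference annotation Stat5a lies between Stat5b and Stat3. The main probe set of Stat5a (1421469_a_at) read 10.90 in the array labelled knockout and 10.89 in the other. Its second probe set (1450259_a_at) read 3.93 and 4.16, below the median on both arrays. No direction can be given for Stat5a, since the log2 difference of 0.01 turned to -0.01 after each array was centred on its median. The brighter probe set of Stat5b (1422103_a_at) read 11.35 and 11.19, a difference of 0.16. The other (1422102_a_at) read 6.73 and 6.83, a difference of -0.10, so the probe sets of Stat5b pointed in opposite directions.

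Stat6, which carries IL-4 and IL-13 signals, read lower in the array labelled knockout by both probe sets. The brighter (1426353_at) read 11.48 and 11.66, a log2 difference of -0.18, and the other (1421708_a_at) read 9.02 and 9.44, a difference of -0.42. Among the 2764 genes with 2 passing probe sets, 37.3% had both below 0 and 25.3% both above, as Stat2 did.

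Socs3, the inhibitor that restrains G-CSF and IL-6 receptors, read lower in the array labelled knockout by each of its probe sets. Probe set 1455899_x_at read 9.51 against 9.88, a log2 difference of -0.37. Probe set 1456212_x_at read 9.40 against 9.67, a difference of -0.27. The third (1416576_at), the only 1 of the 3 without the maker's mark for probes that may cross-hybridise, read 7.58 against 8.06, a difference of -0.48. Their mean was -0.37, with an SD between probe sets of 0.11. Of 1229 genes with 3 passing probe sets, 28.0% had all 3 below 0. By the brightest probe set, 17.4% of all passing genes had a lower difference than Socs3. Fewer cells that express a gene and less of its RNA per cell cannot be told apart in such bulk samples.

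Cish, which encodes CIS, an inhibitor induced by STAT5 downstream of GM-CSF, IL-3 and erythropoietin, had the lowest difference of the 9 genes. Its only probe set (1448724_at) read 7.74 in the array labelled knockout and 8.25 in the other, a log2 difference of -0.50. A lower difference was seen in 11.6% of all passing genes.

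Socs2, which restrains growth hormone signalling, was weak on both arrays. Its brightest probe set (1449109_at) read 6.18 and 5.80, a log2 difference of 0.38, and was the only 1 of 6 to pass the filter. The other 5 lay below the median on both arrays, with differences from -0.55 (1438470_at) to 0.59 (1446085_at). The direction of Socs2 therefore rests on a single probe set. Socs1, the main brake on interferon receptors, had 1 probe set (1450446_a_at), which read 4.38 and 4.28, below the median on both arrays. Weak summaries of this kind hold background as well as signal, so no difference is read from Socs1.

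**Figure D3:**
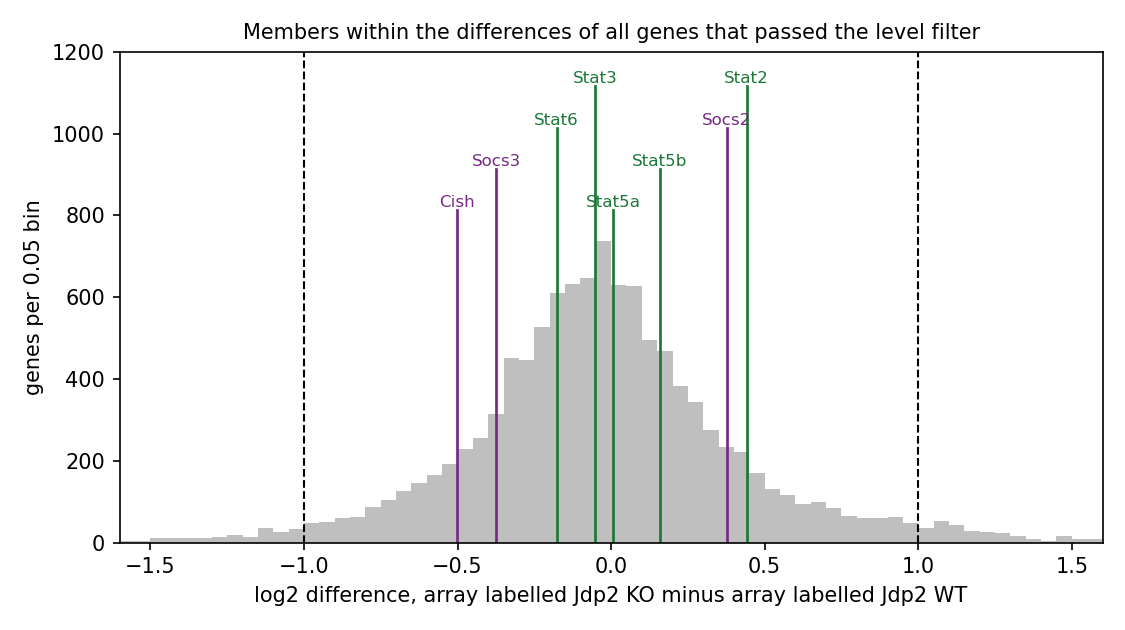
Distribution of log2 differences over the 11168 genes that passed the level filter (grey bars, genes per bin on the vertical axis; the axis leaves out genes beyond 1.6 in either direction), with the 8 passing members as vertical lines, STATs in green and inhibitors in purple. All members lie inside the dashed 2-fold lines, with Cish at -0.50 and Stat2 at 0.44 at the ends.

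Of the kinases that activate STATs, 3 of 4 passed the filter and none reached 2-fold. Jak2, the kinase of the GM-CSF and erythropoietin receptors, read 11.15 and 10.81, a log2 difference of 0.34, and its 2 passing probe sets ran from 0.34 to 0.45. Tyk2, which serves interferon receptors, differed by 0.32 and Jak1 by -0.18. Jak3 lay below the median on both arrays. Among 5 other measured genes of the STAT and SOCS families, 4 passed, none reached 2-fold and 3 lay below 0: Socs4 differed by -0.39, Stat4 by -0.32 and Socs7 by -0.18, while Socs6 differed by 0.10. The 2 passing probe sets of Socs6 ran from -0.58 to 0.10, so they did not share a direction. Those of Socs4 (4) ran from -0.39 to 0.02 and those of Socs7 (2) from -0.73 to -0.18.

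Receptors that signal through STATs showed 0 of 18 passing genes past 2-fold, with 9 on each side of 0 and a median of 0.00. The highest was Il13ra1, a subunit of the receptor for IL-13, which read 11.39 in the array labelled knockout and 10.44 in the other, a log2 difference of 0.95. Its 4 passing probe sets ran from 0.85 to 1.36, so they shared a direction. Il15ra followed at 0.45, and its 2 passing probe sets ran from 0.45 to 1.03. The lowest were Il10ra (-0.59) and Il27ra (-0.39), each with its weaker value under the array median. Setting that value to the median left folds of 1.03 and 1.12. Of 22 measured cytokine ligands only 4 passed the filter, Il12a (0.70), Il15 (0.38), Osm (-0.16) and Il12b (-0.38). The weaker value of Il12a lay under the median, and on the same basis its fold was 1.09.

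Other negative regulators of the pathway, phosphatases, PIAS proteins and adaptors, had 0 of 13 genes past 2-fold and a median of 0.00. The ends of the list were Pdlim2 (-0.52), which encodes a nuclear ubiquitin ligase for STATs, and Pias3 (-0.28) on the low side. Usp18 (0.39), which restrains the interferon receptor, and Pias2 (0.39) stood on the high side. Partners and co-activators of STATs had 0 of 12 past 2-fold and a median of -0.03, from Irf9 (-0.18) and Ndufa13 (-0.16) to Sos1 (0.12) and Nmi (0.36). The 3 passing probe sets of Sos1 ran from -0.62 to 0.26, and the mean of all its probe sets was -0.27. The medians of regulators and partners were above 0 after quantile normalisation (0.03 and 0.01), and that of receptors was below 0 after centring (-0.01).

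Genes known as targets of single STATs were listed by factor. Targets of STAT3 had 0 of 23 passing genes past 2-fold and a median of 0.03, with 13 above 0. Bcl3 (-0.67) and the glycoprotein gene Lrg1 (-0.58) were lowest, and Batf (0.44) and Il4ra (0.38) highest. The 3 passing probe sets of Il4ra ran from -0.10 to 0.38, with a mean of 0.09. Targets of STAT5 had 1 of 13 past 2-fold and a median of 0.15. That median is the value of Bcl2l1, named after its value was seen. Its 3 passing probe sets ran from -0.45 to 0.15, and the mean of its probe sets was -0.16. The gene past 2-fold was Tnfrsf13b, a receptor gene typical of B cells, which read 7.37 and 6.06, a log2 difference of 1.31. Of 8 measured B cell markers 5 passed, and Cd79b, Ms4a1 and Pax5 lay below the median on both arrays. The 3 above 0 were Igll1 (1.15, its weaker value under the median), Cd79a (0.85) and Vpreb1 (0.10). Ebf1 (-0.31) and Ighm (-0.93) lay below 0. The summed linear signal of the 8 was 1128 against 1528. Ighm, the brightest of them, read 8.85 against 9.78, and its 3 passing probe sets ran from -1.45 to 0.07. These markers were named after their values were seen. The part of B cell RNA in Tnfrsf13b was not tested. Next on the STAT5 list came Ccnd2 (0.34), with 7 passing probe sets from -0.47 to 0.63. The lowest there were Pim1 (-0.21) and Osm (-0.16).

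Targets of STAT6 had the highest median of the 11 lists, 0.66 over 11 passing genes, with 9 above 0 and 2 past 2-fold. That median is the value of Irf4 (0.66, or 0.10 as the mean of its probe sets), named after its value was seen. Over all passing genes, 44.8% lay above 0 and 3.06% were at least 2-fold higher. Mrc1, encoding the mannose receptor of macrophages, read 8.78 against 7.13, a 3.12-fold difference. Ppargc1b read 5.78 against 4.22, and with the weaker value set to the array median its fold was 1.09. The lowest were Chil3 (-0.16) and Tgm2 (-0.03). Klf4 (0.74), Retnla (0.72) and Egr2 (0.72) were named after their values were seen. Mrc1 and Klf4 are also on the monocyte and macrophage list, of which 12 of 16 passing genes were past 2-fold, with a median of 1.17. Without them, 1 of 9 genes of the STAT6 list was past 2-fold and the median was 0.38. The latter is the value of Il4ra by its brightest probe set, and the mean of its probe sets was 0.09. The part of monocyte and macrophage RNA in these values was not tested. Stat6 itself read lower in the same array, at -0.18 and -0.42.

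Targets of the STAT2 complex had 0 of 16 past 2-fold and a median of 0.21, with 14 above 0. Ifit1 (0.75), which encodes an RNA-binding antiviral protein, and Xaf1 (0.61, or 0.03 as the mean of its probe sets) were highest, and Irf9 (-0.18) and Ddx58 (0.00) lowest. Rsad2, counted above 0 at 0.06 and named after its value was seen, had passing probe sets down to -0.91 and a mean of -0.31. The same array had the higher monocyte and macrophage signal given above, whose part in these values was not tested. Genes induced by interferon-gamma had 0 of 13 past 2-fold and a median of 0.10. That median is the value of Psmb8 (0.10, or -0.21 as the mean of its probe sets), named after its value was seen. The chemokine gene Cxcl10 read 7.04 against 6.10, a log2 difference of 0.94, and Ifi47 differed by 0.89, as did Gbp2 (0.89), named after its values were seen. The other passing probe set of Gbp2 differed by 1.44, and the mean of both was past 2-fold at 1.17. The lowest were Irf1 (-0.29) and Icam1 (-0.24). In all, 3 of 122 passing pathway genes outside the members were past 2-fold, all 3 higher, beside 5.39% of all passing genes, and 9 pathway genes stood on more than 1 list.

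**Figure D4:**
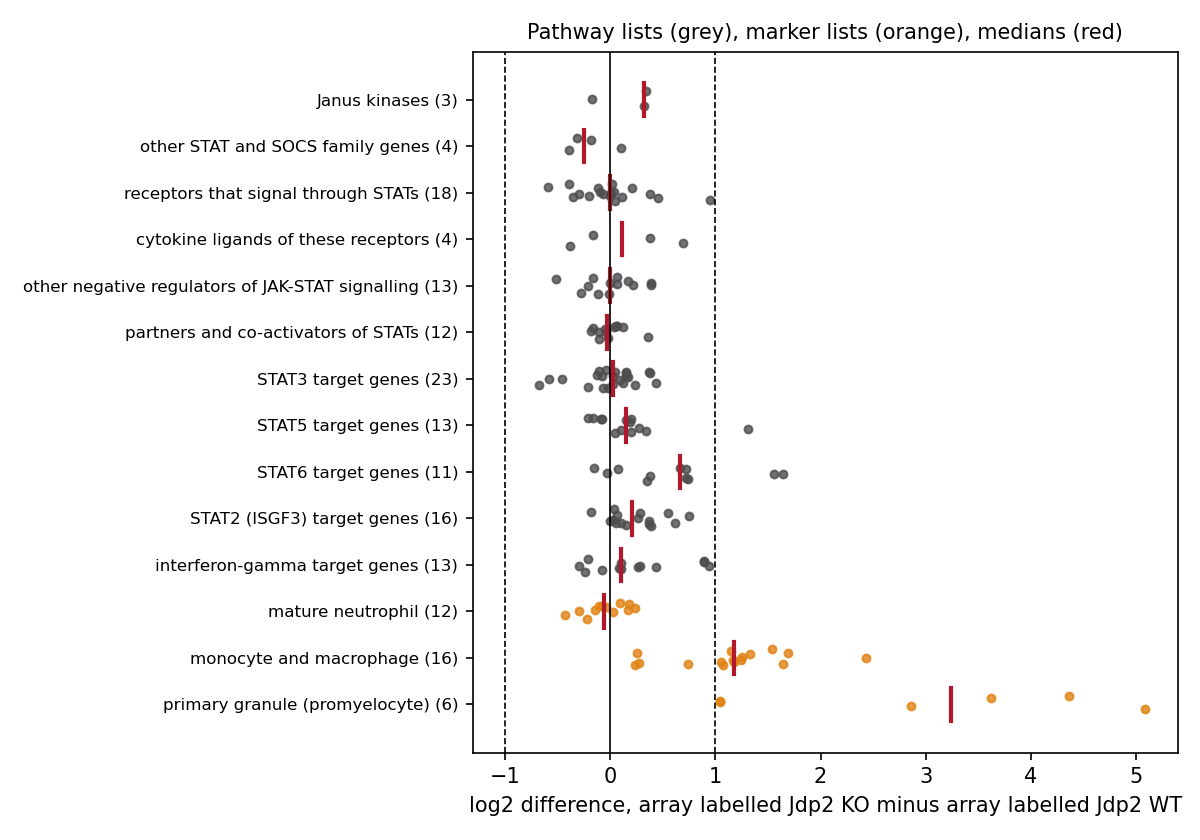
Log2 differences of passing genes in 11 pathway lists (grey) and 3 marker lists (orange), with 1 point per gene, the number of genes in brackets and the list median as a red bar. Dashed lines mark 2-fold. The STAT6 target list is centred at 0.66, the STAT3 target list at 0.03, and the monocyte and macrophage markers at 1.17.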

How the data were processed

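The authors deposited log2 probe set summaries for 2 arrays, 1 per genotype label, and the submitters' processing notes name RMA, with no version or settings. RMA summaries have no detection call. Background in weak values understates their fold. Of 45101 probe sets, 64 were controls. Of the other 45037, 34945 had 1 gene symbol in the platform annotation, 932 had several, and 9160 were not listed. Symbols were updated by Entrez identifier against a GRCm38.p6 gene table (34741 matched). Since the files name no genome build, coordinates are those of the RefSeq promoter table only, which had no Socs2 entry.

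The probe set with the highest mean stood for a gene, which passed where at least 1 value reached its array's median, which left 11168 of 18193 genes. Genes were counted as called at an absolute log2 difference of 1, which is 2-fold. No test was possible. Raising a lower value to the array median gave conservative folds. Members, pathway lists and marker lists were chosen with earlier results of these data known. The text names all members, each pathway list's genes past 2-fold, its 2 highest and 2 lowest passing genes, and Jdp2; other genes were named after their values were seen. The size rule was tested on simulated data. Python 3.11.15, pandas 2.3.3 and statsmodels 0.14.6 were used. Alternatives were other level filters, 3 other scalings (array median centring, quantile, loess with span 0.3), the mean of all probe sets and a 1.5-fold threshold. Another was removal of probe sets marked _s_at, _x_at or _a_at, which left 6 passing members, without Stat5a and Stat5b.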

Additional observations from a re-analysis of the deposited data

How the results depend on the processing

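No member and no member probe set reached 2-fold under any of the alternatives run, including no level filter (9 genes and 23 probe sets) and a 1.5-fold threshold. Cish ran from -0.52 to -0.42 and Socs3 from -0.48 to -0.30 over 9 alternatives each, Stat6 from -0.30 to -0.16, Stat2 from 0.27 to 0.50 and Socs2 from 0.36 to 0.38, with no change of sign. Cish has 1 probe set, so only the 3 other scalings could change its value. The same holds for Socs2, which was read by 1 probe set wherever it passed. Stat3 (-0.24 to -0.01) and Stat5b (0.03 to 0.18) came close to 0, and Stat5a ran from -0.11 to 0.04. Socs2 did not pass when its probe sets were averaged or with a filter at the 75th percentile, which Stat2 did not pass either. The count of pathway genes past 2-fold was 3 of 122 and became 6 of 172 without a level filter, 1 of 100 with a filter at the 75th percentile, 4 of 117 with the mean of all probe sets and 16 at 1.5-fold. The count over all genes was 602 and became 329 with both values above the median, 197 with the 75th percentile, 354 with the mean of all probe sets and 1937 at 1.5-fold. The stricter filters and the lower threshold change these counts by their construction; for the mean of all probe sets the cause was not tested. Leaving out only probe sets marked _s_at or _x_at, and leaving monocyte genes out of target lists, were chosen after seeing the data. No paired analysis was possible because each group has 1 array. With 1 array per group, neither spread between mice nor reproducibility of any difference is known.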
